A study of Mus musculus with 2 samples.

Results

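The genes described here are 10 genes of the liver sinusoidal endothelium, chosen by name and read in endothelial barcodes and in the other cell classes of mouse liver single-cell RNA-Seq. All 10 were among the 32285 genes listed, and all 10 had UMIs in both libraries. Wnt2, Wnt9b, Rspo3, Bmp2, Bmp6 and Dll4 encode signals, Gata4 encodes a transcription factor, and Stab1, Stab2 and Clec4g encode surface receptors. The WT library came from wild-type mice, and the HKO library came from littermates in which loxP-flanked miR-33 was combined with Cre under the albumin promoter, which is active in hepatocytes. All mice were male, were fed CD-HFD, a fat-rich feed without added choline, from 8 weeks of age for 6 months, and contributed to a pool of 3 livers per library. Each genotype was 1 library without a replicate. The genotypes were therefore compared by size only, without a test, and every interval below is a 95% interval that covers counting error only, not differences between mice, pools or preparations. miR-33 itself was not analysed here, so these counts do not check the genotype labels.

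Endothelial cells of the liver sinusoid are specialised: they are fenestrated, lack a continuous basement membrane and clear waste molecules from blood through scavenger receptors. They also release angiocrine factors, signals from vessel to parenchyma. Wnt2, Wnt9b and R-spondin 3 made on the central-vein side maintain the perivenous program of hepatocytes, while BMP2 and BMP6 drive hepatocyte hepcidin (Hamp), the hormone that limits iron uptake. GATA4 is a transcription factor that maintains sinusoidal identity, and Dll4 is a Notch ligand of endothelium.

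Promoter sequences are shown for Stab1, Stab2, Clec4g and Wnt2, to let the start-site regions of the scavenger and lectin receptors be read beside that of the central-vein Wnt. These are also the promoters with a marked match, and those of Bmp6, Dll4 and Wnt9b, which had no match, are not printed. They were taken from RefSeq on GRCm38.p6 and span 250 bases before to 50 bases after the start site. An entry was used for 7 of the 10 genes, and Bmp2, Gata4 and Rspo3 had none. Capitals mark matches to an ETS core (CCGGAA or CAGGAA) or a GATA site (AGATAA or TGATAA), each searched on both strands, and no ETS match overlapped a GATA match.
Stab1 (chr14:31168592-31168891, minus strand): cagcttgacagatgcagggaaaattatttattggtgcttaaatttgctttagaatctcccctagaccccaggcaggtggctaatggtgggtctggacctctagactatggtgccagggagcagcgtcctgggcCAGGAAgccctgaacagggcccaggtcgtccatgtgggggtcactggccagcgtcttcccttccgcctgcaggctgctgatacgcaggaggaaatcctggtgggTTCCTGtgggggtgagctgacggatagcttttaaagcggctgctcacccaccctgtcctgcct
Stab2 (chr10:87007893-87008192, minus strand): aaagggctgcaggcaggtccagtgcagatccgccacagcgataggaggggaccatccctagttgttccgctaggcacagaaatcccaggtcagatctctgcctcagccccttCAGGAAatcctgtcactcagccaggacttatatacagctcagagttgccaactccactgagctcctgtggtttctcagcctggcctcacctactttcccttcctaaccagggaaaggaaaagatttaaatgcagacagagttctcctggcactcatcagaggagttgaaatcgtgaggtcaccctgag
Clec4g (chr8:3720602-3720901, minus strand): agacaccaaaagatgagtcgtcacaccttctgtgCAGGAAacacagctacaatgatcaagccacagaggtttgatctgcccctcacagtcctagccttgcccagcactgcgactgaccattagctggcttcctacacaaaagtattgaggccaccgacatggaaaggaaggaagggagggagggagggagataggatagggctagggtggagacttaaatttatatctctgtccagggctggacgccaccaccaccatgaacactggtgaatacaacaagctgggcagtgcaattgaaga
Wnt2 (chr6:18030396-18030695, minus strand): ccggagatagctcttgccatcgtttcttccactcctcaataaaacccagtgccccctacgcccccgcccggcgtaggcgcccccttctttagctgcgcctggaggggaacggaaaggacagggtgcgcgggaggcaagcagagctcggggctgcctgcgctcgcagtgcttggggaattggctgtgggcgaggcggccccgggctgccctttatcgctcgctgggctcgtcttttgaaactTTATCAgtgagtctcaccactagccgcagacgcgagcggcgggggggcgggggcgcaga
The ETS letters were present in 3 of the 7 promoters, those of Stab1, Stab2 and Clec4g, and in 41.3% of all 32544 promoters of this length. The GATA letters were present in 1 of the 7, that of Wnt2, and in 18.5% of all promoters. These matches describe letters in a window and are no measure of binding.

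The WT library held 130451427 UMIs in 30078 barcodes, with a median of 2658 UMIs per barcode, against 52563185 UMIs and 20000 barcodes for HKO, with a median of 1130. The WT library was thus the deeper one per barcode. After filtering, 29620 WT and 18247 HKO barcodes were kept, most of them shallow and without markers of a non-hepatocyte class. Barcodes were named from clusters built without the 10 genes and from marker lists that did not hold them. The endothelial-like class had 192 WT and 346 HKO barcodes, and all 12 endothelial markers, such as Pecam1, Cdh5 and Kdr, were detected in both. Among stellate markers 11 of 12 were detected in these barcodes, at a summed 164 CPM in WT and 301 CPM in HKO, with Lum at 0. Macrophage markers summed to 85.1 and 69.9 CPM, and hepatocyte markers to 51780 and 38050 CPM. CPM here are UMIs of a gene per 1000000 UMIs of the class. When the 31 WT and 42 HKO endothelial-like barcodes with 3 or more detected markers of another non-hepatocyte class were left out, 3 members were past 2-fold between the libraries, namely Rspo3, Gata4 and Stab2 in place of Wnt2, Rspo3 and Stab2, and the median log2 ratio was 0.88. The effect of subtracting free RNA is given with the comparison of genotypes. Barcodes shared between the libraries were not counted, because the WT barcode list was not used here.

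The members were much higher in endothelial-like barcodes than in the pooled non-parenchymal classes not named endothelial, which were 401 WT and 1366 HKO macrophage, lymphocyte, myeloid and erythroid barcodes. A cluster of 6 WT and 18 HKO barcodes in this pool, with B, plasma, T and NK markers, also carried 4 endothelial markers. In WT, 9 of the 9 members with at least 10 UMIs were at least 2-fold higher in endothelial-like barcodes, where 11.1% of all 12544 genes were. In HKO it was also 9 of 9, where 14.6% of all 13216 genes were. Wnt9b, with 1 UMI in these WT barcodes and 9 in the HKO ones, lay under the minimum in both. These contrasts describe where the RNA was found. The clusters rest on other endothelial genes, so they are no test.

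**Figure D1:**
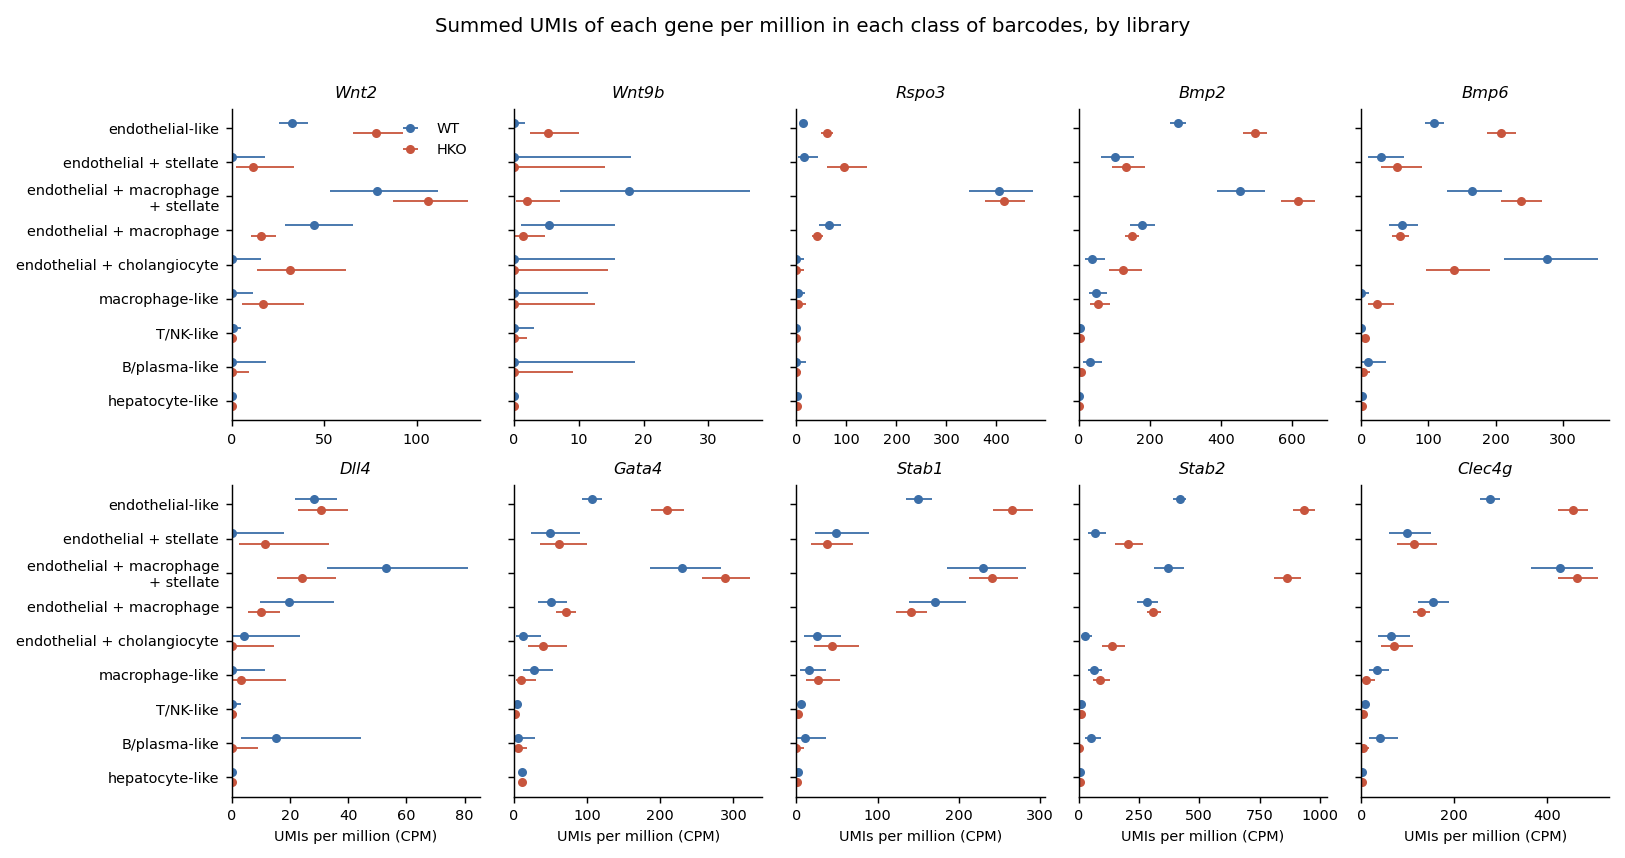
CPM of each gene (x axis, UMIs per 1000000 UMIs of the class, own scale per gene) in 9 classes of barcodes (y axis) for WT and HKO. Points are CPM of summed UMIs and bars are 95% Poisson intervals; most genes are highest in the endothelial-like class or in droplets with endothelial, macrophage and stellate markers, and close to 0 in T/NK-like and hepatocyte-like barcodes.

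Among the angiocrine Wnt ligands, Wnt2 had 73 UMIs in WT endothelial-like barcodes (32.7 CPM, 25.6 to 41.1) and 133 in HKO (78.1 CPM, 65.4 to 92.6). The other non-parenchymal classes held 5 UMIs of Wnt2 in each library, and in WT 4 of the 5 lay in the B, plasma, T and NK cluster. T and NK-like barcodes, which should lack the gene, had a Wnt2 UMI in 1 of 198 WT and 0 of 757 HKO barcodes. Wnt9b, the second Wnt of the central-vein endothelium, had 0 UMIs in 192 WT endothelial-like barcodes, which, with 3 counts taken as the limit of a count of 0, allows a share of barcodes with a UMI of up to 1.56%. In HKO it had 9 UMIs in 8 of 346 barcodes (2.31%). The whole libraries held 14 and 13 UMIs of Wnt9b, and in WT 7 of the 14 lay in the 22 droplets with endothelial, macrophage and stellate markers, 6 of them in 1 barcode. Most Wnt9b UMIs thus lay in droplets with endothelial RNA, but in WT these also held macrophage or stellate RNA. At this depth its WT UMIs could not be assigned to endothelium, and Wnt9b could not be compared between genotypes.

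Rspo3, the R-spondin that amplifies Wnt signals, had most of its UMIs outside the endothelial-like class. Endothelial-like barcodes held 31 UMIs in WT (13.9 CPM) and 104 in HKO (61.1 CPM), which were 10.4% and 16.2% of its UMIs in the kept barcodes. Droplets with endothelial, macrophage and stellate markers held 160 UMIs in 22 WT barcodes (405 CPM) and 428 UMIs in 83 HKO barcodes (416 CPM), or 53.7% and 66.8% of its UMIs. In those droplets 18 of 22 and 69 of 83 barcodes had an Rspo3 UMI. No cluster carried stellate markers without endothelial or macrophage markers, so stellate and endothelial Rspo3 could not be told apart there. T and NK-like barcodes held 0 UMIs of Rspo3 in both libraries. Rspo3 was 3.27-fold (1.56 to 7.49) higher in endothelial-like than in other non-parenchymal barcodes in WT and 107-fold (29.0 to 898) in HKO. The WT contrast rests on 10 UMIs in the other classes, 8 of them in 1 barcode of the B, plasma, T and NK cluster that carried endothelial markers. Without that cluster the WT ratio was 15.7 (3.98 to 135), from 2 UMIs in the other classes.

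The BMP ligands were among the broadly detected members. Bmp2 had 622 UMIs in WT endothelial-like barcodes (279 CPM) and 844 in HKO (496 CPM), and was found in 61.5% and 56.6% of the barcodes, against 2.02% and 0.528% of T and NK-like barcodes. After thinning each barcode to 1000 UMIs, which left out 1 WT and 46 HKO endothelial-like barcodes, the shares were 30.4% and 38.3%. Bmp6 had 242 UMIs (108 CPM) and 354 UMIs (208 CPM), in 40.6% and 39.0% of barcodes, or 10.5% and 21.3% after thinning. For both ligands the share was higher in HKO after thinning and not before it. Of the thinned barcodes, 64 of 191 in WT and 63 of 300 in HKO were from the hepatocyte-rich deep cluster described further on. The part of this unequal mix in the thinned shares was not tested. Bmp6 was 17.0-fold (10.1 to 30.9) higher in endothelial-like than in other non-parenchymal barcodes in WT and 26.1-fold (17.8 to 39.9) in HKO. It was also present in droplets with cholangiocyte and endothelial markers, at 276 CPM in 12 WT and 138 CPM in 27 HKO barcodes, from 65 and 35 UMIs. In WT, 29 of those 65 UMIs were in 1 barcode.

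Dll4, the Notch ligand, had 63 UMIs in WT endothelial-like barcodes (28.2 CPM, 21.7 to 36.1) and 52 in HKO (30.5 CPM, 22.8 to 40.1). The share of barcodes with a UMI was 22.9% in WT against 12.4% in HKO, or 5.76% and 5.33% after thinning. T and NK-like barcodes held 0 UMIs of Dll4 in either library. Its class-level CPM differed by less than counting error between the libraries.

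Gata4 had 237 UMIs (106 CPM) in WT and 356 UMIs (209 CPM) in HKO endothelial-like barcodes. Hepatocyte-like barcodes held 521 and 227 of its UMIs, at 10.6 and 11.2 CPM. Shallow barcodes at the commonest depth, used as a measure of free RNA, had 9.93 and 7.75 CPM, so its WT level in particular lay near theirs. They also carried hepatocyte RNA such as Alb, so this nearness cannot tell Gata4 RNA of hepatocytes from free RNA. By contrast, Bmp2, Stab1 and Clec4g were lower in WT hepatocyte-like barcodes, at 1.53, 1.63 and 1.72 CPM, than in free RNA, at 4.36, 3.82 and 4.38 CPM. Whether hepatocytes made Gata4 RNA was not tested. Droplets with endothelial, macrophage and stellate markers had Gata4 at 230.3 and 289 CPM. Of the 5 other GATA genes, Gata2 was the most detected in the endothelial-like cluster described below, with 15 WT and 25 HKO UMIs, and Gata1 and Gata3 were at 0.

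The scavenger receptors Stab1 and Stab2 and the sinusoidal lectin Clec4g were the surface members. Stab2 had 936 UMIs (419 CPM) in WT and 1590 (934 CPM) in HKO endothelial-like barcodes and was found in 62.5% and 61.0% of them. Clec4g had 617 UMIs (276 CPM) and 774 UMIs (455 CPM), in 67.7% and 58.4% of barcodes. Stab1 had 335 UMIs (150.03 CPM) and 452 UMIs (266 CPM), in 57.8% and 48.3% of barcodes. Macrophage-like barcodes had Stab1 at 15.4 and 26.9 CPM, from 5 and 8 UMIs, and Stab2 at 61.6 and 87.6 CPM, from 20 and 26 UMIs. Both receptors were thus far lower in macrophage-like than in endothelial-like barcodes in each library.

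In the droplets with endothelial, macrophage and stellate markers, all 9 members other than Wnt9b stood at levels that overlapped or passed those of the summed endothelial-like class in both libraries. Bmp2 was at 453 CPM (389 to 525) in these droplets in WT and 615 CPM (568 to 665) in HKO, above its endothelial-like level in both. The same order held for Wnt2 in WT, at 78.5 CPM (53.3 to 111), while in HKO its 106 CPM (87.0 to 128) overlapped the endothelial-like interval. Stab2 was at 370 CPM (312 to 435) and 864 CPM (808 to 923), overlapping the endothelial-like interval in each library. Clec4g was higher in these droplets in WT, at 428 CPM (366 to 497), and overlapped in HKO, at 465 CPM (424 to 508). Bmp6 was higher there in WT, at 165 CPM (127 to 210), and Stab1 likewise at 230.3 CPM (185 to 283), while in HKO both overlapped. Dll4 overlapped in each library, and Gata4 and Rspo3 were higher in each. Of these 9 members, all but Rspo3 lay below their levels in the intermediate endothelial-like cluster, described further on, in both libraries. Gata4, for example, was at 353 CPM in WT and 507 CPM in HKO in that cluster. Droplets with mainly stellate and endothelial markers, which also carried 3 macrophage markers, were lower for Bmp2, Bmp6, Gata4, Stab1, Stab2 and Clec4g, with intervals that did not overlap the endothelial-like ones. For Rspo3, 14.6 CPM (3.02 to 42.8) in WT and 95.5 CPM (61.8 to 141) in HKO overlapped them.

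The endothelial-like class was made of 3 clusters that differed in depth and in foreign RNA. A shallow cluster held 65 WT and 132 HKO barcodes with medians of 3183 and 1271 UMIs. An intermediate cluster held 63 and 151 barcodes with medians of 7206 and 3678 UMIs, and endothelial markers made up 0.746% and 0.906% of its UMIs. All 12 endothelial markers passed the marker rule there, as did 4 stellate markers, Dcn, Rgs5, Ecm1 and Hgf, and summed stellate markers were at 492 (WT) and 609 CPM (HKO). A deep cluster held 64 and 63 barcodes with medians of 21318 and 11337 UMIs, and endothelial markers made up 0.0422% and 0.0477% of its UMIs against 6.06% and 5.47% for hepatocyte markers. In depth and hepatocyte markers it was close to the hepatocyte-like class, which had medians of 19395.5 and 10711 UMIs and shares of 6.75% and 5.46%. Endothelial markers made up 0.00147% and 0.00102% of UMIs in the hepatocyte-like class. The deep cluster thus held mostly hepatocyte-like RNA with some endothelial RNA. The deep cluster carried 1497725 of the 2232909 WT class UMIs and 796881 of the 1702376 HKO ones, so it weighed more in the WT sum.

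**Figure D2:**
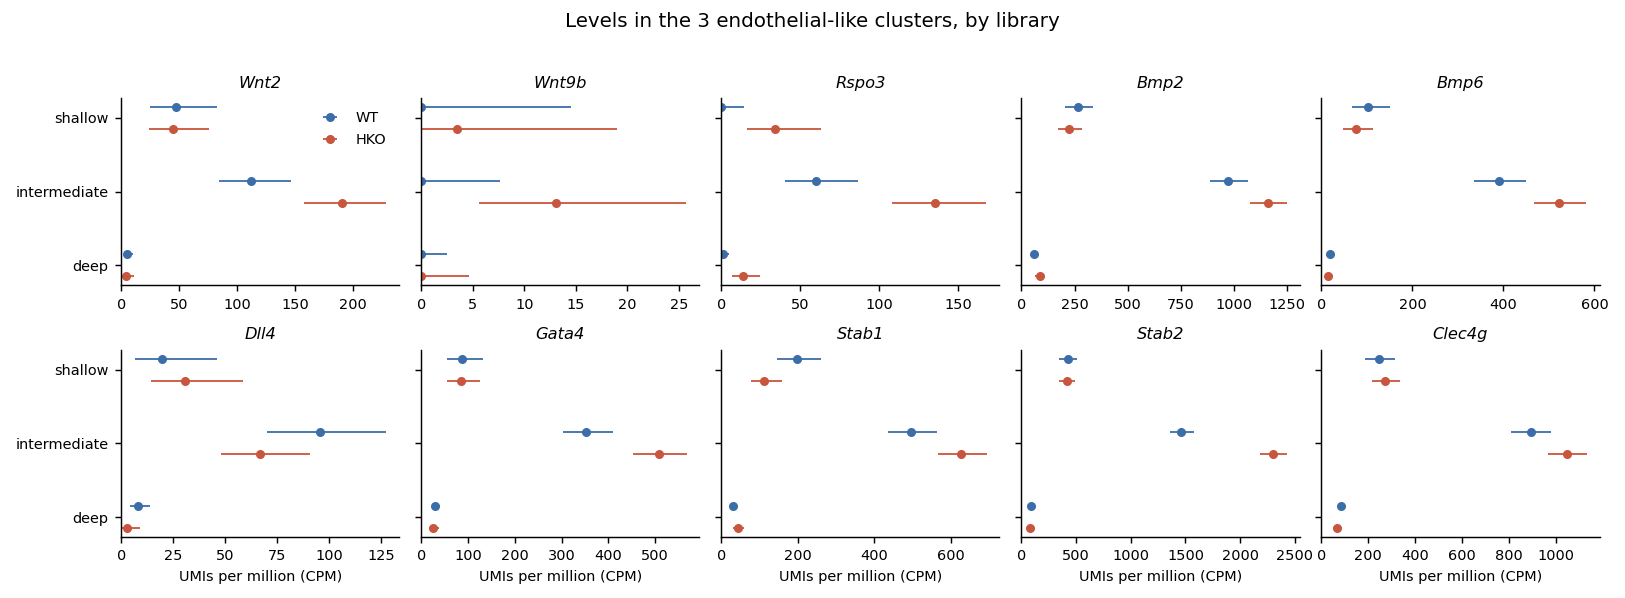
CPM of each gene (x axis, own scale per gene) in the shallow, intermediate and deep endothelial-like clusters (y axis) for WT and HKO, with 95% Poisson intervals. In both libraries Bmp2, Bmp6, Gata4, Stab1, Stab2, Clec4g, Wnt2 and Dll4 are highest in the intermediate cluster and lowest in the deep cluster.

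Member levels followed this division. In the intermediate cluster at least 1 member was found in 63 of 63 WT and 150 of 151 HKO barcodes, with a median of 6 members per barcode in each. In T and NK-like barcodes at least 1 was found in 18 of 198 and 24 of 757. In this cluster Stab2 stood at 1461 CPM in WT and 2301 CPM in HKO. Bmp2 stood at 973 and 1160.1 CPM, and Clec4g at 892 and 1047 CPM. In the deep cluster Stab2 was at 83.5 and 74.0 CPM, and Bmp2 at 57.4 and 85.3 CPM.

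Summed over the whole endothelial-like class, member levels were higher in HKO than in WT. The HKO over WT ratio was 2.39 (1.78 to 3.22) for Wnt2, 4.40 (2.92 to 6.80) for Rspo3 and 2.23 (2.05 to 2.42) for Stab2. It was 1.78 for Bmp2, 1.92 for Bmp6, 1.97 for Gata4, 1.77 for Stab1 and 1.65 for Clec4g, and these 5 intervals all lay above 1. Dll4 had 1.08 (0.735 to 1.59). So 3 of the 9 members with at least 10 UMIs were at least 2-fold higher and 0 were at least 2-fold lower, where 7.76% and 3.82% of all 11579 genes were. The median log2 ratio of the members was 0.94, beside 0.13 for all genes. None of the 3 clusters alone had a median that large. It was 0.42 in the intermediate, −0.03 in the shallow and −0.26 in the deep cluster, and 6 of 9 members were lower in HKO in each of the last 2. After free RNA, scaled by Alb and estimated at 86.1% of the WT and 67.5% of the HKO class UMIs, was subtracted, the members' median turned to −0.27. Rspo3 was at 1.95 in that setting and Stab2 at 0.961. That setting counts all Alb UMIs of the class as free RNA, including any from hepatocyte RNA in the same droplets. Barcodes used to measure free RNA had commonest depths of 2515 (WT) and 775 (HKO) UMIs, against endothelial-like medians of 7128 and 3427. The amount subtracted may therefore hold more than free RNA. It lowered the class totals unequally, and the ratios of all 9 members fell. Other droplets with endothelial RNA did not share 1 direction. In those with endothelial and macrophage markers 7 of 9 members had the lower level in HKO. Over the 9 members the median log2 ratio was −0.26, and Wnt2 was at 0.361 (0.197 to 0.659). In those with endothelial, macrophage and stellate markers 8 of 9 were higher, with a median of 0.33, Stab2 at 2.34 (1.96 to 2.80) and Dll4 at 0.457 (0.246 to 0.859). In those with mainly stellate and endothelial markers 6 of 7 were higher, with a median of 0.38, Rspo3 at 6.53 (1.99 to 33.8) from 3 and 25 UMIs and Stab2 at 2.97 (1.62 to 5.79). In the order given, endothelial markers made up 0.146%, 0.307% and 0.0546% of the WT UMIs of these 3 kinds of droplets. In HKO the shares were 0.143%, 0.420% and 0.0978%. Medians over all genes were 0.03, 0.03 and −0.03.

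The 12 endothelial markers moved with the members. Summed, they were at 2082 and 3822 CPM, which gave 1.84 (1.77 to 1.91), and each marker alone lay between 1.46 for Emcn and 2.11 for Eng. Per UMI of these markers, the HKO over WT ratio was 0.970 (0.873 to 1.08) for Bmp2, 1.05 (0.885 to 1.24) for Bmp6, 1.07 (0.908 to 1.27) for Gata4 and 0.964 (0.835 to 1.11) for Stab1. These 4 intervals included 1. Clec4g had 0.896 (0.805 to 0.998), and Wnt2 had 1.30 (0.971 to 1.76). Stab2 had 1.21 (1.12 to 1.32) over the class, from 1.30 (1.18 to 1.42) in the intermediate, 0.837 (0.640 to 1.10) in the shallow and 0.785 (0.566 to 1.08) in the deep cluster. Rspo3 remained higher at 2.40 (1.59 to 3.71), and Dll4 was lower at 0.590 (0.401 to 0.865).

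**Figure D3:**
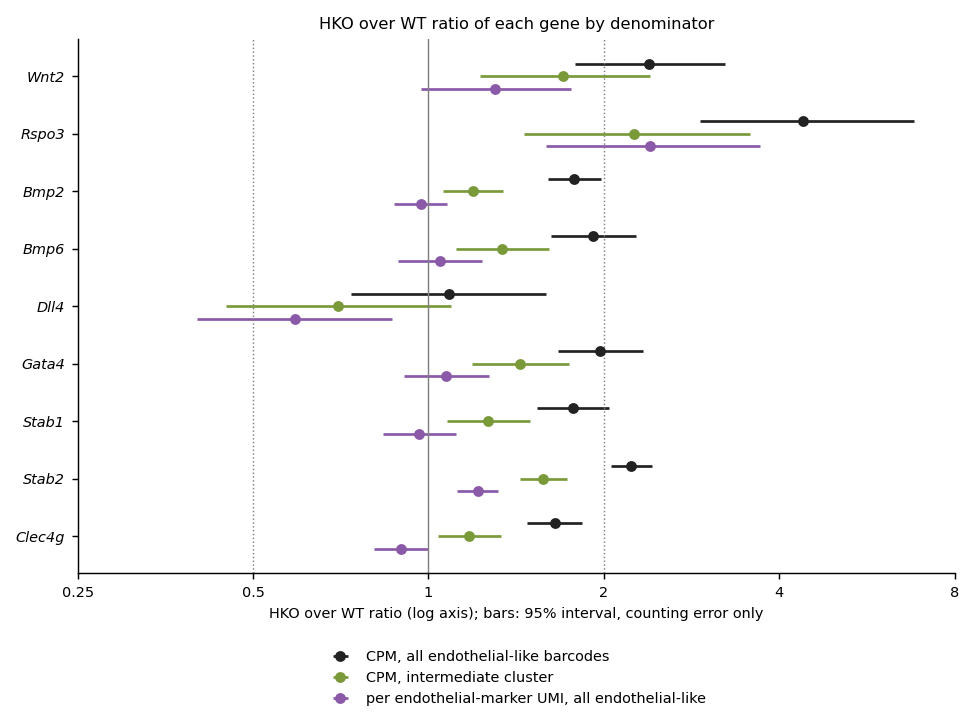
HKO over WT ratio (x axis, log scale) of each gene with at least 10 UMIs (y axis) from CPM of all endothelial-like barcodes, CPM of the intermediate cluster, and UMIs per endothelial-marker UMI, with 95% intervals for counting error. All 9 class-level points lie above 1, 8 of 9 intermediate-cluster points lie above 1 with Rspo3 past 2, and per marker UMI the intervals of Rspo3 and Stab2 lie above 1 and those of Dll4 and Clec4g below it.

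In the intermediate cluster the ratios of all 9 members were smaller than over the class. In this cluster Rspo3 had 29 and 83 UMIs (60.2 and 135 CPM) and a ratio of 2.25 (1.46 to 3.56). Wnt2 had 112 and 191 CPM, a ratio of 1.70 (1.22 to 2.40), and Stab2 had 1.57 (1.44 to 1.73). Gata4 had 1.44 (1.19 to 1.74), Bmp6 1.34 (1.11 to 1.61), Stab1 1.27 (1.07 to 1.49), Bmp2 1.19 (1.06 to 1.34) and Clec4g 1.17 (1.04 to 1.33). Dll4 had 95.5 and 66.9 CPM, a ratio of 0.701 (0.448 to 1.09). So 1 of 9 was at least 2-fold higher and 0 lower, where 6.39% and 7.57% of all 9436 genes were. Per endothelial-marker UMI in this cluster Rspo3 had 1.85 (1.20 to 2.93), under 2-fold, and Dll4 had 0.577 (0.369 to 0.898). Endothelial markers together had a ratio of 1.21 (1.16 to 1.27) in this cluster. The part of stellate RNA in the Rspo3 ratio was not tested. The median log2 ratio of the members was 0.42 there, −0.03 in the shallow cluster and −0.26 in the deep cluster. Single members differed from those medians: Rspo3 had 10.3 (2.26 to 96.0) in the deep cluster, from 2 and 11 UMIs, Stab1 had 0.572 (0.357 to 0.905) in the shallow cluster, and Dll4 had 1.56 (0.469 to 5.92) there, from 5 and 9 UMIs.

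The Dll4 detection share in the intermediate cluster was 32 of 63 WT barcodes (50.8%) and 32 of 151 HKO barcodes (21.2%), with unequal median depths. At 1000 UMIs per barcode it was 14.3% and 7.28%, from 9 and 11 barcodes. For Wnt2 the same shares were 41.3% and 45.0% before thinning and 3.17% and 18.5% after it, from 2 and 28 barcodes. For Rspo3 they were 14.3% and 13.9% before and 6.35% and 8.61% after. Shares after thinning rest on a random draw of UMIs, and for Wnt2 in WT on only 2 barcodes. The CPM ratio of Wnt2 in this cluster was 1.70.

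Within the intermediate cluster, barcodes with Wnt2 RNA were higher for Rspo3, Kit and the summed central-vein side list in both libraries. Of its barcodes, 26 of 63 in WT and 68 of 151 in HKO had a Wnt2 UMI, at median depths of 7306 and 3956 UMIs against 7199 and 3503 without. Rspo3 was at 131 CPM in WT barcodes with Wnt2 and 7.24 CPM in those without, a ratio of 18.1 (4.55 to 157) from 27 and 2 UMIs. In HKO it was at 190.1 and 83.1 CPM, a ratio of 2.29 (1.42 to 3.79). Kit, a receptor tyrosine kinase that marks central-vein endothelium, was 3.29-fold (1.58 to 7.36) higher in WT and 3.02-fold (1.74 to 5.48) higher in HKO. Thbd, thrombomodulin, had 1.95 (1.06 to 3.63) in WT and 1.18 (0.706 to 1.98) in HKO. Wnt9b had 4 UMIs with and 4 without Wnt2 in HKO, at 13.3 and 12.8 CPM, so it did not differ beyond counting error. The list of 8 central-vein side genes had 1.24 (1.08 to 1.43) and 1.33 (1.18 to 1.50), and the list of 8 portal side genes had 0.801 (0.722 to 0.888) and 0.717 (0.654 to 0.786). The sinusoidal list had 1.10 (1.04 to 1.16) and 1.12 (1.06 to 1.17), and the continuous or capillarised list had 0.752 (0.640 to 0.882) and 0.643 (0.557 to 0.741). Dll4 was lower in WT barcodes with Wnt2, at 0.373 (0.165 to 0.767), while in HKO the interval of 0.902 (0.461 to 1.75) included 1. Stellate markers moved in opposite directions in this split, at 0.551 (0.410 to 0.734) in WT and 2.02 (1.63 to 2.53) in HKO, and their part in it was not tested.

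Barcodes with an Rspo3 UMI numbered 9 in WT and 21 in HKO. The central-vein side list was 1.64-fold (1.38 to 1.94) and 2.56-fold (2.23 to 2.93) higher in them, and the portal side list was at 0.502 (0.416 to 0.601) and 0.498 (0.412 to 0.598). Thbd was 2.49-fold (1.26 to 4.69) and 2.31-fold (1.23 to 4.13) higher. The sinusoidal list was lower, at 0.772 (0.708 to 0.840) and 0.636 (0.584 to 0.692), with Stab2 at 0.642 and 0.660, Clec4g at 0.659 and 0.664 and Bmp2 at 0.703 and 0.547. Gata4 had 0.627 (0.356 to 1.04) in WT and 1.52 (1.11 to 2.04) in HKO, and Stab1 had intervals that included 1 in both libraries. Fabp4 is on both the central-vein side list and the continuous or capillarised list and held a large part of their UMIs. The second list was at 1.33 (1.09 to 1.62) and 1.28 (1.05 to 1.55) with it. Without Fabp4, an alternative chosen after seeing the data, that list was at 1.49 (1.10 to 1.99) in WT and 0.835 (0.608 to 1.12) in HKO, so no shared direction held. The central-vein side list without it was at 2.10 (1.67 to 2.62) and 2.90 (2.46 to 3.41). Stellate markers were at 0.849 (0.562 to 1.24) in WT and 0.410 (0.247 to 0.642) in HKO. Of the 8 Wnt9b UMIs in the HKO intermediate cluster, 6 were in barcodes with Rspo3. Dll4-positive barcodes, 32 in each library, had Rspo3 at 0.0332 (0.000813 to 0.201) of the level of the others in WT, from 1 UMI, and at 0.259 (0.101 to 0.560) in HKO.

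**Figure D4:**
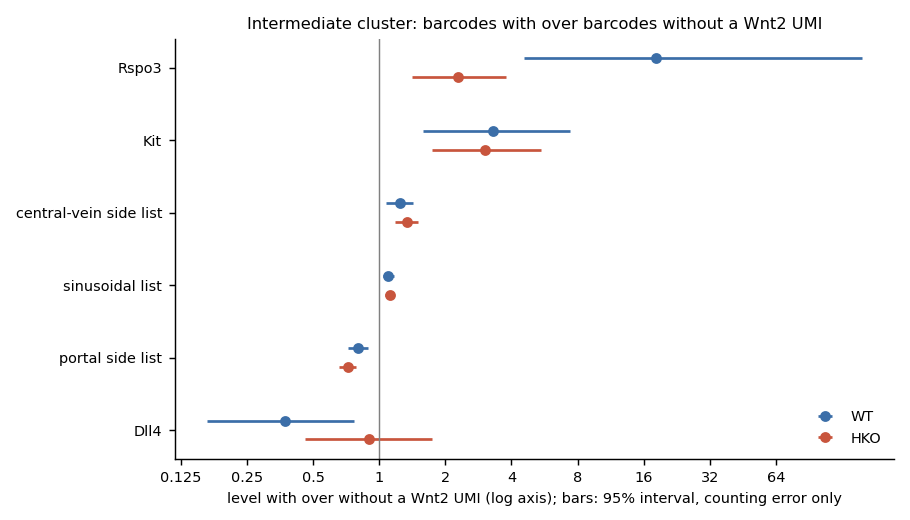
Ratio (x axis, log scale) of the level in intermediate-cluster barcodes with a Wnt2 UMI over those without, for single genes and summed gene lists (y axis) in WT and HKO, with 95% intervals for counting error. Rspo3, Kit and the central-vein side list lie above 1 and the portal side list below 1 in both libraries.

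Genes with the most similar pattern were taken over 24 class-by-library sums with at least 20 barcodes each, among 7721 genes, by Pearson r of log2(CPM + 10). Wnt2 was most like Erg (0.97), Emcn and Srgap1, and Rspo3 most like Phactr1 (0.97), Tmem47 and Emilin1. Bmp2 and Stab2 both had Kdr first (0.99 and 0.98), followed by Adgrf5 and Ptprb. Bmp6 had Meis2 (0.97), Esam and Srgap1, and Gata4 had Myo10 (0.96), She and Esam. Stab1 had Fabp4 (0.97), Lyve1 and Adgrf5, Clec4g had Oit3 (0.98), Adgrf5 and Gpihbp1, and Dll4 had Mcam (0.95), Hecw2 and Nos3. These sums share libraries and depth, so the values only describe likeness.

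Other endothelial genes gave the setting in the intermediate cluster. Of all genes in this cluster 6.39% were at least 2-fold higher in HKO and 7.57% lower. Of 11 sinusoidal genes with at least 10 UMIs, 0 were 2-fold higher or lower, with a median log2 ratio of 0.10. Maf, a transcription factor, had a ratio of 1.38 (1.27 to 1.49), the mannose receptor Mrc1 1.07 (0.967 to 1.18), and Gpr182 0.823 (0.708 to 0.956). Of 8 central-vein side genes 1 was 2-fold higher, Cdh13 at 2.12 (1.68 to 2.70), and the median was 0.38. Of 7 portal side genes none passed 2-fold in either direction, with a median of −0.10. Ntn4 had 0.618 (0.529 to 0.722) and Adam23 1.14 (1.04 to 1.26). Among 12 endothelial transcription factors 0 passed 2-fold and the median was 0.47, with Fli1 at 1.72 (1.40 to 2.12), Mef2c at 1.74 (1.39 to 2.17) and the flow-responsive Klf2 at 1.57 (1.34 to 1.85). Of 11 other angiocrine factors 1 was 2-fold higher, Bmp4 at 4.32 (0.944 to 40.1) from 2 and 11 UMIs, and 2 were lower, Esm1 and Edn1. Esm1 had 0.399 (0.251 to 0.625) from 61 and 31 UMIs, Edn1, endothelin, 0.472 (0.210 to 1.01) from 20 and 12 UMIs, Nos3, endothelial nitric oxide synthase, 1.78 (1.11 to 2.91), and Hgf 1.38 (1.07 to 1.81). Hgf is also on the stellate marker list.

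The receivers of these signals were read in 1994 WT and 1601 HKO hepatocyte-like barcodes. Of 22 Wnt and R-spondin pathway genes, 3 were 2-fold higher in HKO and 2 lower, where 4.02% and 5.45% of all 15280 genes were, and the median log2 ratio was 0.09. Lgr5, an R-spondin receptor and Wnt target of perivenous hepatocytes, rested on 236 and 203 UMIs (4.82 and 10.1 CPM) and had a ratio of 2.09 (1.72 to 2.53). Nkd1 had 3.57 (1.85 to 7.04) from 17 and 25 UMIs, and Sp5 had 2.05 (1.11 to 3.77) from 26 and 22 UMIs. Notum, a secreted Wnt inhibitor and target, was lower, at 0.490 (0.410 to 0.583), as was the Wnt co-receptor Lrp5, at 0.496 (0.432 to 0.566) from 1283 and 262 UMIs. The receptor Lgr4 had 1.07 (1.01 to 1.14), and the co-receptor Lrp6 had 1.05 (0.986 to 1.11).

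On the BMP side, none of 23 genes passed 2-fold in hepatocyte-like barcodes and the median log2 ratio was −0.02. Hamp, the hepcidin gene, was at 3654 and 4120.3 CPM and had a ratio of 1.13 (1.12 to 1.14). Id2, a BMP target, had 1.01 (0.983 to 1.04). In the same list Id1 had 1.04 (0.953 to 1.13) and Smad6 1.08 (0.846 to 1.36), while Id3 had 0.845 (0.810 to 0.882) and Smad7 0.811 (0.725 to 0.907). Tmprss6, which cleaves the BMP co-receptor hemojuvelin, had 0.888 (0.852 to 0.924), and Hjv itself had 0.720 (0.665 to 0.780). In the endothelial-like intermediate cluster 0 of 22 BMP pathway genes were 2-fold higher and 4 were lower, beside 6.39% and 7.57% of all genes. The endothelial BMP receptor Acvrl1 was at 0.449 (0.163 to 1.15) from 14 and 8 UMIs, so its interval included 1. The other 3 were the hepatocyte genes Hamp2 at 0.440 (0.212 to 0.880), Tmprss6 at 0.423 (0.204 to 0.841) and Hjv, hemojuvelin, at 0.357 (0.0973 to 1.12) from 11 and 5 UMIs. Hamp, at 0.591 (0.520 to 0.671), was also lower in HKO in this cluster, as were the hepatocyte markers, at 23958 and 13154 CPM in this cluster. Bmpr2, the type II BMP receptor, had 1.19 (1.04 to 1.36) there, and Smad1 had 1.99 (1.32 to 3.05). For Notch, Notch1 had 0.940 (0.748 to 1.18) and Hes1 1.04 (0.835 to 1.29) in this cluster, beside the Dll4 ratio of 0.701.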

How the data were processed

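Single-cell suspensions of mouse liver were profiled with 10x Genomics 3' chemistry, in which hepatocytes and sorted non-parenchymal cells had been mixed 1:1. The authors deposited UMI counts as whole numbers, with genes in rows and barcodes in columns and no normalization. The file headers name Cell Ranger 7.1.0. The submitters' processing notes also name R 3.0, Seurat 3 and mm10. The annotation and the counting options are not given in the sources used here.

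The 10 genes and all gene and marker lists were chosen with earlier results of these data known. Every member is named. From each list, up to 4 genes with the most UMIs and up to 4 with the largest log2 ratio at 20 or more UMIs could be named. Lrp5, Bmp4, Hjv, Id1, Id3, Smad6 and Smad7 were named after their values were seen. For likeness, the 3 genes with the highest r were named, among genes with at least 50 UMIs. Barcodes with at least 500 UMIs, at least 300 genes and at most 50% mitochondrial UMIs were kept. Removed barcodes numbered 458 in WT, all for the mitochondrial share, and 1753 in HKO, of which 1740 had too high a mitochondrial share and 163 too few genes, some both. Counts scaled to 10000 per barcode were log-transformed, and 2000 variable genes without the members, 30 principal components and 15 neighbours gave Leiden clusters at resolution 1 (scanpy 1.11.5, igraph 0.11.9, scikit-learn 1.9.0, Python 3.11.15). Both libraries were clustered as 1 set, and clusters with non-hepatocyte markers were clustered again. A class needed at least 3 of its markers, each in at least 10% of barcodes and at least 2-fold above the rest. Barcodes without such markers were hepatocyte-like from 5000 UMIs upward. A further class was added to a cluster's name, which was then called mixed, where the share of its marker list that passed was at least 50% of the leading class's share, so a cluster can hold 3 or more markers of a class it is not named for.

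UMIs were summed per class and library and divided by the class total. The members' minimum was 10 UMIs, and a difference of 2-fold was counted. Intervals are exact (Poisson, Clopper-Pearson or conditional on the summed count) and assume independent UMIs, although UMIs of a gene cluster in barcodes. With 1 library per genotype no test was made. A count of 0 was set to 3 counts per library when a ratio was formed for the medians and counts. Doublets were kept, since Scrublet in scanpy marked 0 barcodes in either library. The ratio step was tested on simulated data. Alternatives changed filters, doublets, clustering, class rule, depth, weighting, free RNA, single barcodes and the minimum of UMIs.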

Additional observations from a re-analysis of the deposited data

How the results depend on the processing

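The 9 WT and 9 HKO members that were at least 2-fold higher in endothelial-like than in other non-parenchymal barcodes numbered 8 to 10 under the 16 alternatives in which they were counted. The comparison of genotypes did depend on the processing. The count of 3 members past 2-fold and the median log2 ratio of 0.94 over the 9 members became 1 and −0.27 after free RNA scaled by Alb was subtracted, which took 86.1% of WT and 67.5% of HKO class UMIs, the member past 2-fold then being Dll4, at 0.468, and the Stab2 ratio went from 2.23 to 0.961. They became 1 and 0.38 without the deep endothelial-like cluster, 1 and 0.42 in the intermediate cluster alone, and 1 and 0.064 per UMI of the 12 endothelial markers. These last 3 alternatives, and leaving the B, plasma, T and NK cluster out of the other classes, were chosen after seeing the data. They became 8 and 1.43 with the class set by marker UMIs of each barcode, the count became 5 at Leiden resolution 2, and the median became 0.64 after thinning to 1000 UMIs. By construction, the setting per marker UMI divides every member's ratio by the markers' own HKO over WT ratio of 1.84. The free-RNA setting acts mainly through the class totals, of which it left a smaller part in WT. The cause of the other shifts was not tested. In 16 alternatives Wnt2 and Rspo3 stayed above 1, with ranges of 1.02 to 3.03 and 1.95 to 5.49. Dll4 was above 1 in 8 and below 1 in 8, between 0.468 and 1.45. Bmp2, Bmp6, Gata4, Stab1, Stab2 and Clec4g each lay below 1 in 1 or 2 of the 16. Each of them did so after free RNA was subtracted, and Bmp2, Stab1 and Clec4g also per marker UMI. Both settings change the total by which all members are divided, so these are not separate results for each gene. Scrublet's scores left out 7019 WT and 2664 HKO barcodes, of which 2 and 23 were endothelial-like. No paired analysis was possible because each genotype had 1 library and no test was made. Wnt9b had 9 UMIs in the class over both libraries, too few for a comparison at this depth.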

Other observations

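Genes of continuous or capillarised endothelium, which rise in other settings when sinusoids lose their fenestrae, were read in the intermediate endothelial-like cluster. Of 7 with at least 10 UMIs, 1 was at least 2-fold higher in HKO and 0 were lower, beside 6.39% and 7.57% of all genes in that cluster, and the median log2 ratio was 0.35. Fbln2, an extracellular matrix gene, had 2.36 (0.897 to 7.26) from 6 and 18 UMIs, so its interval included 1. Fabp4, a fatty acid binding protein, had 0.739 (0.639 to 0.855), Ly6a 1.27 (1.03 to 1.57) and Mecom 1.42 (1.06 to 1.92). Cd34 had 0.524 (0.211 to 1.25) from 15 and 10 UMIs, and Plvap, a protein of fenestral diaphragms, had 1.17 (0.724 to 1.90).

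Wnt receptors and Notch genes were also read in this cluster. Of 13 Wnt and R-spondin pathway genes with at least 10 UMIs, 0 were 2-fold higher and 1 was lower, beside 6.39% and 7.57% of all genes. That gene was Fzd8 at 0.337 (0.106 to 0.933) from 14 and 6 UMIs. Wls, which carries Wnt proteins to the cell surface, had 1.32 (0.959 to 1.84). Of 11 Notch pathway genes 1 was 2-fold higher and 0 were lower, beside the same shares of all genes, and 7 of the 11 had a ratio below 1, with a median log2 ratio of −0.13. The gene past 2-fold was Lfng, which glycosylates Notch receptors, at 2.26 (0.976 to 5.84) from 8 and 23 UMIs. The receptor Notch4 was measured by 22 and 14 UMIs (45.7 and 22.8 CPM). With 1 library per genotype, none of these ratios has a replicate check.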
